A study of Mus musculus with 61 samples.

Results

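The genes described here are 38 cell cycle and DNA replication genes, chosen by name from the 55052 genes of a table of RNA levels in mouse stembryos. They are Mcm2 to Mcm7, Cdc6, Cdt1, Cdc45, Gins1, Gins2 and Pcna of the replication machinery, Rrm1, Rrm2 and Tyms of nucleotide synthesis, E2f1, Ccne1 and Ccne2 of the passage from G1 to S phase, Ccnd1, Ccnd2, Ccnd3, Cdk6 and Cdkn1b of G1 control, Cdk1, Ccna2, Ccnb1 and Ccnb2, the checkpoint genes Bub1, Bub1b and Cdc20, the kinase genes Plk1, Aurka and Aurkb, and Top2a, Mki67, Cenpe, Cenpf and Kif11 of chromosomes and spindle. The choice was by role and used no cutoff on a measured value, but it was made with earlier results of these data known. Stembryos are aggregates of mouse embryonic stem (mES) cells that a pulse of the Wnt agonist Chiron turns into an elongating structure resembling a posterior body axis. Poly(A) RNA of pooled stembryos was sequenced in 61 libraries of 28 groups, to follow the Hox genes over time and in mutants of the HoxD cluster.

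The study names EmbryoMax 129/SVEV as its wild-type mES cells, and the labels do not give the line of each wild-type library. A wild-type time course held 16 libraries, 2 at each of 8 stages, 72, 84, 96, 108, 120, 132, 144 and 168 h after aggregation. Another 10 wild-type libraries came from 96 h (4), 120 h (4) and 144 h (2). The 35 mutant libraries formed 17 groups of 8 genotypes, and all groups had received the same Chiron pulse. Del(CBS1), Del(CBS1-2), Del(CBS2), Del(CBS4) and Del(CBS1-5) lack CTCF-binding sites of HoxD, Del(d1-d4) lacks the Hoxd1 to Hoxd4 segment, Del(sub-TAD1) lacks a regulatory domain next to the cluster, and Ins(2xCBS-d4d8) carries a cassette with additional CTCF-binding sites. Each edited genotype is a clone of mutant cells, and Del(CBS1-2) was made by deleting CBS2 in Del(CBS1) cells. The mES cells of Del(CBS1-5) and Del(sub-TAD1) were derived from blastocysts of mutant mice, and the deletion of Del(sub-TAD1) includes Mtx2, which a fosmid transgene supplied. Mice of the study were backcrossed to BL6 x CBA hybrids, whereas the wild-type cells that the study names were 129/SVEV. For all 8 genotypes, effects of the cell line or clone and of the mutation cannot be told apart. From 108 h on, elongating stembryos without signs of apoptosis had been picked, so levels describe those only. The methods of the study state biological replicates, while the labels do not say which libraries came from separate cultures, so p-values measure the spread between these libraries.

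The libraries fell into 2 sets by their mitochondrial mRNA. Both mt-Co2 and mt-Co3 lay between 576 and 1718 FPKM (a level corrected for transcript length and for the number of mapped fragments) in 28 libraries, set 1, and between 0.205 and 3.85 FPKM in 33 libraries, set 2. The time course belonged to set 2. Mutants were therefore compared with wild-type libraries of the same stage and set. An estimate from the intervals deposited with the values put the depth between 14.4 and 37.3 M fragments a library, and between 14.4 and 23.0 M in the time course. None of the 38 genes was at 0 in any library. The smallest number of fragments implied by the deposited intervals was 39.8, for Cdk6, and 387 for the other members. This number takes the intervals as set by counting alone, and it does not bear on the spread between libraries. Wild-type replicate 3 stood apart from replicates 1 and 2 at 96 h and 120 h, with a summed level of 7 pluripotency markers of 346 FPKM at 96 h where the lowest library had 51.7 FPKM, and 343 FPKM against 37.4 FPKM at 120 h. The calls that were lost without it are named.

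Dividing cells duplicate their genome in S phase and separate the copies in mitosis. D-type cyclins with their kinase partners carry signals from outside the cell into the cycle during G1, E2F factors then switch on genes for DNA synthesis, and cyclin A, cyclin B and Cdk1 drive S phase and mitosis. Embryonic stem cells and early embryos cycle fast with short gap phases, and gap phase control appears as cells differentiate. In bulk libraries, fewer cells in a phase or of a type and less RNA per cell cannot be told apart.

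Genes of this module are commonly described as sharing promoter elements: E2F sites in genes of S phase, and the cell cycle homology region (CHR) with CCAAT boxes in genes of mitosis. Promoter sequence, the 250 bases before the RefSeq gene start in the GRCm38.p6 build, was at hand for 30 of the 38 members, all but Ccnd1, Ccnd2, Ccne2, Ccna2, Aurkb, Gins1, Gins2 and Mcm4. Matches were counted on both strands and without regard to overlap between motifs. An E2F-type match (TTTCCCGC, TTTCGCGC, TTTGCCGC or TTTGGCGC) was found in 5 of 30 members, Cdc6, Cdk1, Mcm5, Mcm6 and Mcm7, or 16.7%, and in 2.16% of the 27025 genes of the table. The CHR letters TTTGAA occurred in 8 of 30, or 26.7%, against 18.3% of all genes. CCAAT was present in 24 of 30, or 80.0%, against 37.5% of all genes. The next 4 promoters are shown because Mcm5 and Cdk1 had the narrowest range over the stages, Mcm6 was 1 of 2 replication genes called in a step between stages, and Top2a differed in 2 mutants. They are written 5′ to 3′ on the strand of the gene, with matches to the motifs in capitals. A match is a description of letters and not a site of binding.
Mcm5, chr8:75109259-75109508, plus strand: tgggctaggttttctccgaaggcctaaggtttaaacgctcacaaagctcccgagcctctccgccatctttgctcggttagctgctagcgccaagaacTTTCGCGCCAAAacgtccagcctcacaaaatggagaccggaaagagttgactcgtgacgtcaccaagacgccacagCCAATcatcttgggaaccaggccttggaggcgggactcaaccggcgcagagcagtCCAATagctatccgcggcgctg
Mcm6, chr1:128359706-128359955, minus strand: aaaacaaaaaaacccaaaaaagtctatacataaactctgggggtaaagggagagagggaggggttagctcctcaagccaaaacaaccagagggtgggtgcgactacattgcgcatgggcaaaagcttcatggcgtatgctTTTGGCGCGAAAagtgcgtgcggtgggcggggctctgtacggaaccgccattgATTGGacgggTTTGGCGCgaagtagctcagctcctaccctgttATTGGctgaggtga
Cdk1, chr10:69352913-69353162, minus strand: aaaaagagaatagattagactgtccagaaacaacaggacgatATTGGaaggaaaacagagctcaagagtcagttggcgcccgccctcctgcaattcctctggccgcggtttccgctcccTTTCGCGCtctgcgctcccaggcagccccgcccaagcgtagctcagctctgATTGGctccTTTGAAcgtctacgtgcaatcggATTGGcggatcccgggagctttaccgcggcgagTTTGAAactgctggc
Top2a, chr11:99024190-99024439, minus strand: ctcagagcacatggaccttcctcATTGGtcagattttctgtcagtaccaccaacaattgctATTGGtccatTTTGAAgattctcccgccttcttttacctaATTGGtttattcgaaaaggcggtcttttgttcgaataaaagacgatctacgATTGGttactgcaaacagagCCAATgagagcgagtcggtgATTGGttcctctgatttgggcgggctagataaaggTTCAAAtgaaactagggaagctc
The Mcm5 promoter held 2 E2F-type matches, which overlap on opposite strands, and the Mcm6 promoter 3, of which a pair overlaps. Cdk1 had 1 E2F-type match, 2 CHR matches and 3 CCAAT boxes. Top2a had no E2F-type match, 2 CHR matches and 6 CCAAT boxes, ATTGG and TTCAAA being CCAAT and TTTGAA on the other strand.

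Over the time course, which asked how RNA levels change from the end of the Chiron pulse to the latest stage, most replication and mitotic genes held an almost even level while the D cyclins rose. The summed level of the 12 replication genes had stage means between 1291 FPKM (120 h) and 1410 FPKM (84 h). The 5 G1 control genes summed to 174 FPKM at the first stage and to 485 FPKM at the last. Mcm5, a subunit of the replicative helicase, had the narrowest range, with stage means from 180 to 205 FPKM, or 1.14-fold. Cdk1, the kinase that drives mitosis, ranged from 189 to 219 FPKM, and Pcna, the sliding clamp of DNA polymerases, 1.19-fold, from 201 to 240.0 FPKM. Ccnd2 had the widest range, 6.71-fold.

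On the log2(FPKM + 0.1) scale, the difference between highest and lowest stage mean had a median of 0.43 over the 38 members and of 0.95 over the 17098 genes tested. It was under 0.5 for 22 members, or 57.9%, and for 24.2% of all genes tested. It reached at least 1 for 5 members, Ccnd2, Cenpe, Mki67, Ccnd3 and Ccnd1, or 13.2%, and for 47.7% of all genes. Members are among the more abundant genes, and low genes vary more. Over the 9365 genes with a time course mean at or above that of the lowest member, the median was 0.67 and 29.9% reached 1. That member was Cdk6, at a mean of 3.94 FPKM, and the next lowest, Cenpe, had 15.45 FPKM. This set is therefore not matched to the level of most members.

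**Figure D1:**
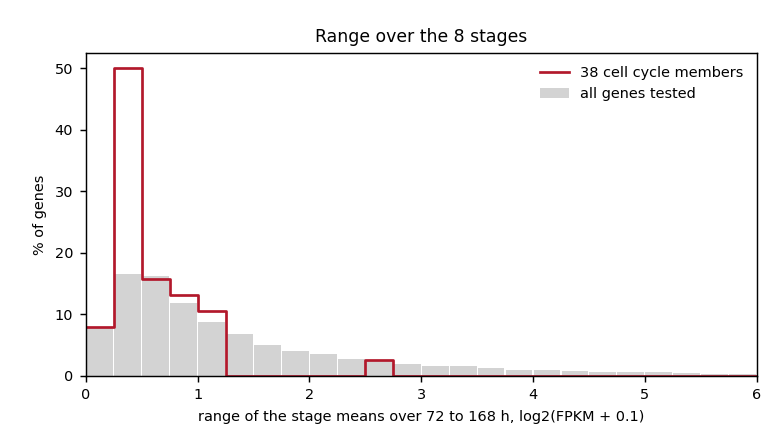
Histogram of the range of stage means between 72 h and 168 h, in units of log2(FPKM + 0.1) on the x axis, as a percentage of genes on the y axis, for the 17098 genes tested (grey bars) and the 38 members (red line). The members gather below 0.5, with Ccnd2 standing alone on the right. Ranges over 6 lie outside the plot.

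**Figure D2:**
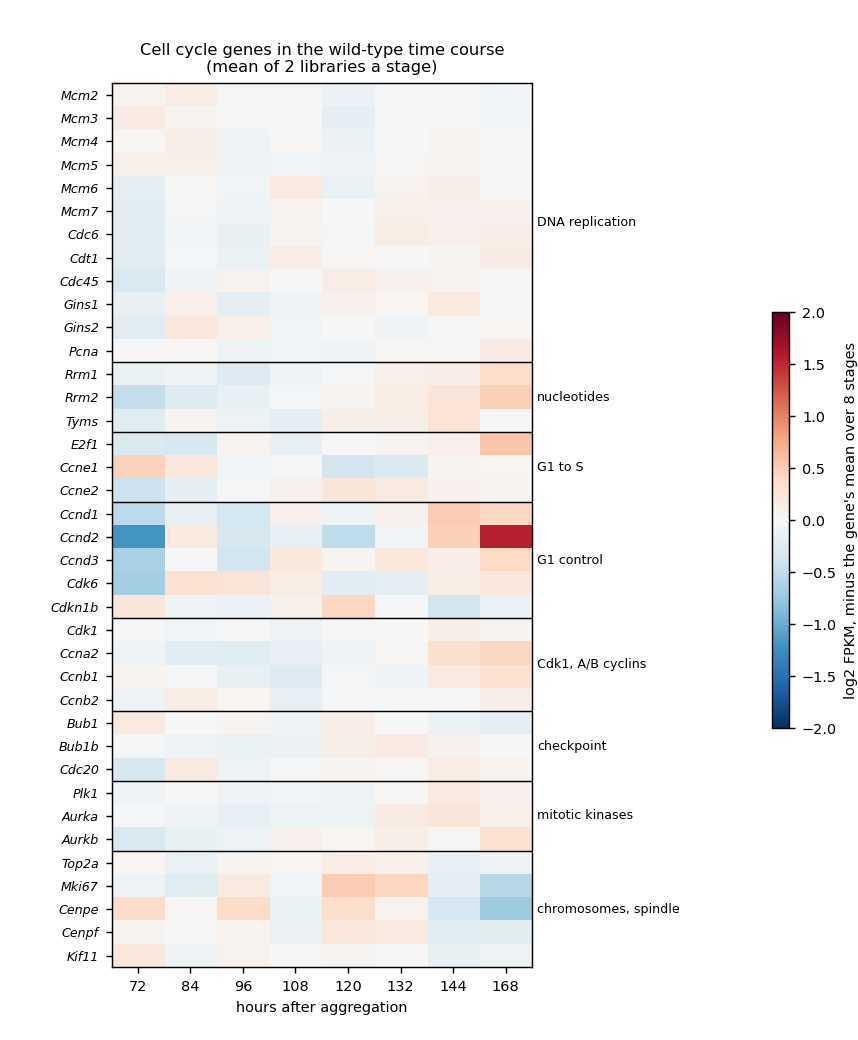
Heat map of the 38 members (rows, grouped by role) over the 8 wild-type stages (columns, hours after aggregation). Colour gives the log2 of the mean FPKM of 2 libraries minus the gene's mean over stages, on a scale from -2 to 2. The rows of the replication genes are pale throughout, and Ccnd2 goes from the darkest blue at 72 h to the darkest red at 168 h. Cenpe and Mki67 are below their means at some earlier stages too and are bluest at 168 h.

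Between 72 h and 168 h, 22 of 38 members passed the test (limma, adjusted p under 0.05 over all genes), 16 higher and 6 lower, where 48.2% of all genes tested did, 25.3% higher and 22.9% lower. Their median log2 fold change was 0.20 over all 38 members and 0.00 over all genes. The D cyclins, which bind Cdk4 or Cdk6 to start the cycle, led. Ccnd2 (mm10 chr6:127125162-127152193) stood at 28.7 and 42.1 FPKM in the 72 h libraries, whereas those of 168 h held 245 and 230 FPKM, a log2 fold change of 2.77 (SE 0.21, limma adjusted p = 2.5e-13). Ccnd1 went from 70.0 and 71.7 FPKM to 139 and 134 FPKM (0.94, SE 0.11, limma adjusted p = 3.1e-09). Ccnd3 went from 47.3 and 40.2 FPKM to 89.99 and 90.5 FPKM (1.05, SE 0.11, limma adjusted p = 9.2e-10). For each of the 3 genes both late libraries lay above both early ones, by far more than libraries of a stage differed.

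Rrm2, the regulated subunit of ribonucleotide reductase, had a higher mean at every later stage than at the stage before. Its libraries gave 140 and 127 FPKM at 72 h, 191 and 191 FPKM at 120 h, and 249 and 266 FPKM at 168 h. The change from 72 h to 168 h was 0.95 (SE 0.12, limma adjusted p = 3.0e-08), although no single step passed the test. Rrm1, the other subunit, rose by 0.49, and E2f1, the activator of S phase genes, from 11.97 and 13.1 FPKM to 22.6 FPKM in both libraries (0.84, limma adjusted p = 1.5e-10). Cdk6, the kinase partner of D cyclins and the least abundant member, rose by 0.86, from 2.30 and 2.53 FPKM to 4.72 and 4.20 FPKM.

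Another 6 of the 16 genes that rose belong to DNA replication or the G1 to S passage. Cdc6 (0.35) and Cdt1 (0.39) load the helicase at origins, Mcm7 (0.30), Cdc45 (0.30) and Gins2 (0.25) belong to the helicase itself, and Ccne2 (0.47) is an E cyclin. Mcm3, another helicase subunit, fell by 0.21. Of the mitotic genes, Aurkb, the kinase of the chromosomal passenger complex, rose by 0.61, Ccna2, the cyclin of S and G2 phase, by 0.50, and Cdc20, an activator of the anaphase-promoting complex, by 0.41.

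Cenpe, the kinesin that moves chromosomes to the spindle equator, fell furthest. It stood at 19.5 and 19.4 FPKM at 72 h, at 19.8 and 18.5 FPKM at 120 h, and at 9.53 and 8.82 FPKM at 168 h, and its fall by 1.08 (SE 0.15, limma adjusted p = 2.2e-07) came with no overlap between early and late libraries. Mki67, whose product coats mitotic chromosomes and marks cycling cells, went from 32.5 and 33.3 FPKM at 72 h through 46.4 and 52.7 FPKM at 120 h to 26.2 and 21.6 FPKM at 168 h, and fell by 0.47 between the ends. Kif11, the kinesin that pushes spindle poles apart, fell by 0.31, and the checkpoint kinase gene Bub1 by 0.39. Ccne1, the E cyclin that drives entry into S phase, fell by 0.43, from 67.7 and 68.8 FPKM to 47.8 and 53.7 FPKM.

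Of the 22 calls, 13 were kept when any 1 of the 4 libraries was left out. The others were lost without at least 1 library, with these highest adjusted p (limma): Ccne1 0.090 without 168 h replicate 1, Mki67 0.087 without 168 h replicate 2, Cdc20 0.34 without 72 h replicate 2 and Cdc45 0.38 without 72 h replicate 1. Ccne2 and Cdt1 were lost without 168 h replicate 2 or a 72 h library (replicate 1 for Ccne2, replicate 2 for Cdt1; 0.25 and 0.47). Kif11 was lost without replicate 1 of either stage (0.096), Gins2 without 72 h replicate 2 or either 168 h library (0.11), and Mcm3 without any of the 4 (0.11).

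The 16 members that did not pass included all but 1 of the mitotic cyclin genes and most of the Mcm genes, with log2 fold changes between -0.36 (Cdkn1b) and 0.26 (Ccnb1). Cdkn1b, the gene of the Cdk inhibitor p27, had its highest level at 120 h (27.7 and 20.2 FPKM) and its lowest at 144 h (12.5 and 15.3 FPKM). The difference between 72 h and 168 h did not pass the test (adjusted p = 0.11 by limma).

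Cell makeup changed over the same stages. The summed level of 7 pluripotency markers lay at 1361 to 1470 FPKM at 72 h, 614 to 661 FPKM at 84 h and 44.9 to 56.6 FPKM at 168 h, with none at 0. Between the ends 3 of the 7 fell, Pou5f1, Nanog and Tdgf1, and the other 4 did not pass the test. Of 6 markers of streak and presomitic mesoderm 5 fell and 1 rose, with sums of 1162 to 1331 FPKM at 72 h and 45.6 to 46.4 FPKM at 168 h. All 4 somite markers tested rose. The sum of 5 somite markers was 2.08 to 2.14 FPKM at 72 h, 429 to 474 FPKM at 108 h and 68.3 to 75.7 FPKM at 168 h. Of 5 endothelial markers 4 rose, and of 4 cardiac markers tested 2 rose. Of 5 endoderm markers 1 rose and 1 fell. For 5 markers of neural tube progenitors the sum went from 6.36 to 8.31 FPKM at 72 h, with Olig2 at 0, to 203 to 206 FPKM at 168 h, and all 5 rose. For 5 markers of postmitotic neurons the sum went from 23.3 to 38.1 FPKM to 145 to 155 FPKM, and 4 of 5 rose. Their part in the changes of the cell cycle genes was not tested.

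**Figure D3:**
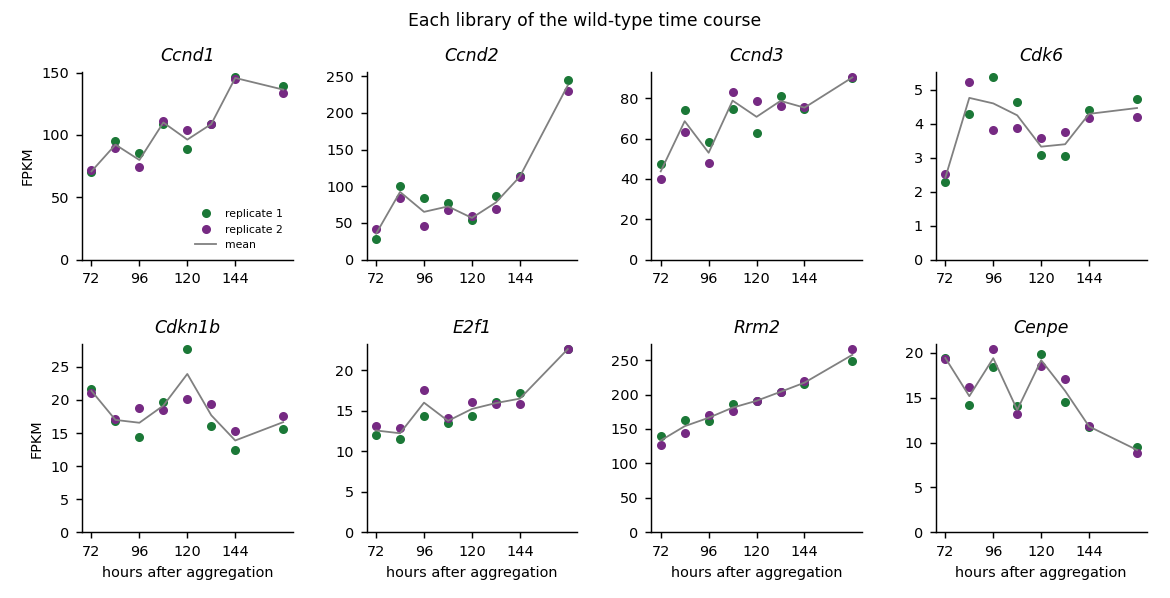
Levels in FPKM (y axis, from 0) of Ccnd1, Ccnd2, Ccnd3, Cdk6, Cdkn1b, E2f1, Rrm2 and Cenpe against hours after aggregation (x axis) in the wild-type time course; each point is a library and the grey line joins the means of 2 libraries. Ccnd2 is higher at 144 h and 168 h than at all earlier stages, Rrm2 climbs at every stage, and Cenpe ends at its lowest level.

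In the steps between successive stages some of these genes were called, while others, such as Rrm1, Mcm7 and Kif11, were called in none. From 72 h to 84 h, 6 of 38 members rose and none fell, where 16.3% of all genes were called, 10.4% higher and 5.97% lower. Ccnd2 rose from 28.7 and 42.1 FPKM to 99.996 and 84.6 FPKM (1.40, SE 0.21, limma adjusted p = 6.2e-06), Cdk6 by 0.95, Ccnd3 by 0.65, Cdc20 by 0.51, Gins2 by 0.42 and Ccnd1 by 0.38. So 4 of the 5 genes of G1 control rose in this step. The calls of Ccnd1 (highest adjusted p = 0.12 by limma, without 84 h replicate 1, and lost also without 72 h replicate 1) and Cdc20 (0.24, without 72 h replicate 2 or 84 h replicate 1) rested on single libraries.

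From 84 h to 96 h, where 20.7% of all genes were called, 3 members were: Mki67 rose by 0.44 and E2f1 by 0.38, and Ccnd3 fell by 0.38. Ccnd2, at 83.8 and 46.4 FPKM at 96 h, differed more between these libraries than any other G1 gene and was not called. From 96 h to 108 h, with 9.45% of all genes called, Ccnd3 rose by 0.58 and Ccnd1 by 0.46, and Cenpe fell by 0.50. All 6 of these calls were lost without 96 h replicate 2, and the highest adjusted p (limma) for a call lay between 0.056 and 0.30. The calls of Mki67 and Ccnd3 in the earlier step were lost also without 84 h replicate 1, and that of Cenpe without either 108 h library.

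From 108 h to 120 h, with 7.06% of all genes called, Mki67 rose by 0.55 and Cenpe by 0.49, while Mcm6 fell by 0.32, from 174 and 168 FPKM to 130 and 145 FPKM. The Cenpe call was lost without any 1 of the 4 libraries, that of Mcm6 without either 108 h library or 120 h replicate 1, and that of Mki67 without 108 h replicate 1 or 120 h replicate 2 (highest adjusted p = 0.24, 0.37 and 0.087 by limma). From 120 h to 132 h, with 2.46% of all genes called, limma called 0 members. At an unadjusted p under 0.05, a looser threshold than that of the share, there were 5.

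From 132 h to 144 h, with 5.42% of all genes called, Ccnd1 rose by 0.42, from 108 and 109 FPKM to 147 and 145 FPKM, and Ccna2 by 0.29, and Mki67 fell by 0.60. These calls too were lost without single libraries: Ccnd1 without any of the 4 (highest adjusted p = 0.12 by limma), Ccna2 without either 132 h library or 144 h replicate 1 (0.22), and Mki67 without replicate 2 of either stage (0.11). From 144 h to 168 h, with 9.87% of all genes called, Ccnd2 rose from 114 and 112 FPKM to 245 and 230 FPKM (1.07, limma adjusted p = 6.3e-04), E2f1 rose by 0.45 (limma adjusted p = 2.7e-04) and Aurkb by 0.27. Ccnd2 and E2f1 were called whichever library was left out, and Ccnd2 gave an adjusted p of 0.051 (limma) when the time course was fitted alone. Aurkb was not called without either 144 h library or 168 h replicate 2 (highest adjusted p = 0.25 by limma).

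The wild-type libraries of set 1 allowed the same genes to be followed from 96 h to 120 h with 3 libraries at each stage. There, 8 members rose and 2 fell, and 24.2% of all genes were called, 14% higher and 10.2% lower. Ccnd1 stood at 60.4, 58.6 and 57.5 FPKM at 96 h and at 85.6, 79.9 and 95.4 FPKM at 120 h (0.56, SE 0.13, limma adjusted p = 0.0013). Ccnd3 rose from 41.4, 46.8 and 46.3 FPKM to 65.4, 61.5 and 56.7 FPKM (0.45), and the checkpoint kinase gene Bub1b from 50.4, 49.0 and 55.6 FPKM to 70.2, 67.0 and 68.2 FPKM (0.41, SE 0.06, limma adjusted p = 5.5e-07). The libraries of the stages did not overlap for these 3 genes.

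Rrm1 rose by 0.30, Top2a, the topoisomerase that untangles chromosomes, by 0.25, Aurkb by 0.23, the centrosomal kinase gene Aurka by 0.21 and Mcm7 by 0.15. Cdk6 fell by 0.66, from 4.75, 4.38 and 4.11 FPKM to 2.61, 2.58 and 3.11 FPKM, and Gins2 by 0.28. The calls of Top2a, Aurka and Mcm7 were lost when single libraries were left out, wild-type replicate 3 among them for Top2a at both stages and for Aurka at 120 h (highest adjusted p = 0.12, 0.20 and 0.14 by limma). The other 7 were not lost. With replicate number as a block, a pairing that no label states, 12 members were called, all 10 of the former among them.

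Other genes of the same pathways, from lists of genes outside the 38, give the surroundings of these values. Between 72 h and 168 h, 8 of 34 other replication genes rose and 13 fell, with a median log2 fold change of -0.07, and 48.2% of all genes were called. Orc1, the largest subunit of the origin recognition complex, fell by 1.21, from 23.1 and 22.7 FPKM to 9.66 and 10.1 FPKM. Of 27 other mitotic genes 14 rose and 5 fell (median 0.30), with the securin gene Pttg1 up by 0.90. Of 23 other G1 control genes 12 rose and 4 fell (median 0.59), and those that rose include Rbl2, listed at 0 in 12 libraries. E2f2, another activating E2F, rose by 2.76, from 1.24 and 1.56 FPKM to 10.2 and 9.81 FPKM. Cdkn1c, the gene of the Cdk inhibitor p57, rose by 2.92, from 7.65 and 4.10 FPKM to 45.9 and 40.2 FPKM.

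Cdkn1a, the gene of the inhibitor p21, fell by 2.15 between 72 h and 168 h. Its libraries gave 165 and 205 FPKM at 72 h, 139 and 129 FPKM at 84 h, and 42.9 and 28.8 FPKM at 96 h, and the step from 84 h to 96 h was -1.93 (limma adjusted p = 5.4e-09). Mycn, a Myc factor that promotes growth, rose from 14.6 and 10.3 FPKM at 72 h to 59.6 and 49.6 FPKM at 84 h (2.14, limma adjusted p = 2.1e-11), the step in which Ccnd1, Ccnd2, Ccnd3 and Cdk6 rose. Rb1 was listed at 0 in 11 libraries and Rbl2, another gene of the retinoblastoma family, in 12, and no fold is given for either.

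Mutants were compared with wild type at each of 17 combinations of genotype and stage, to ask whether changes in HoxD reach genes elsewhere. Members were called in 8 of the 17, with 37 calls in all, and in the other 9 limma called 0. These calls were 5.73% of the 646 combinations of member and group, near the 6.24% over all genes tested. When single libraries were left out, 7 of the 37 calls were kept throughout: Ccnd2 in Del(CBS4) at 120 h, and Ccne1, Ccnd1, Ccnd2, Cdk6, Cenpe and Kif11 in Del(CBS1-5) at 144 h. The libraries on which the other calls depended are named with them.

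**Figure D4:**
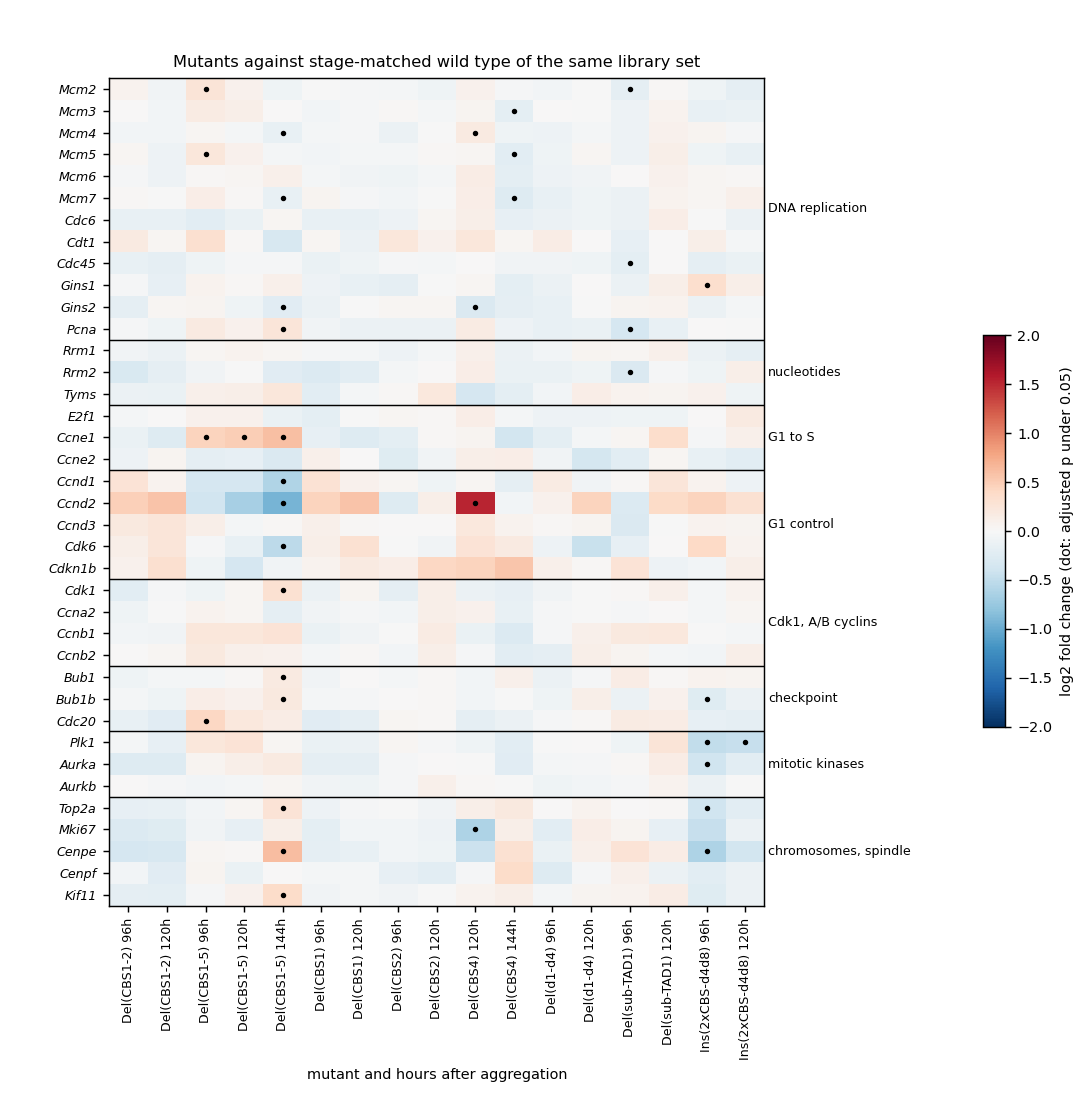
Heat map of log2 fold changes of the 38 members (rows, by role) in the 17 mutant groups against wild type of the same stage and library set (columns), on a colour scale from -2 to 2; black dots mark an adjusted p under 0.05 (limma). The columns of Del(CBS1), Del(CBS1-2), Del(CBS2) and Del(d1-d4) carry no dots, and that of Del(CBS1-5) at 144 h carries 14.

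Del(CBS1) had no called member at 96 h or 120 h, and 3 and 4 members with an unadjusted p under 0.05 (limma), where 0.216% and 1.2% of all genes were called. Del(CBS1-2) had none at either stage (7 and 6 members at an unadjusted p under 0.05, with 1% and 0.608% of all genes called). Del(CBS2) had none, and 0 at an unadjusted p under 0.05 at both stages, with 0.228% and 0.199% of all genes called. Del(d1-d4) had none (3 and 2 at an unadjusted p under 0.05, with 0.626% and 0.76% of all genes called). Over these 8 groups the log2 fold changes of members lay between -0.45 (Cdk6 in Del(d1-d4) at 120 h) and 0.58 (Ccnd2 in Del(CBS1) at 120 h). The shares of all genes called are at an adjusted p under 0.05. No share of all genes is given at an unadjusted p under 0.05, so member counts at that looser threshold, here and below, have no background. The comparisons at a stage share their wild-type libraries.

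Ccnd2 had the highest log2 fold change of all members in 5 of these 8 groups, 0.44 and 0.58 in Del(CBS1), 0.47 and 0.57 in Del(CBS1-2), at 96 h and 120 h, and 0.44 in Del(d1-d4) at 120 h. None of these passed the test, and the groups were measured against the same 3 wild-type libraries of each stage. Del(CBS1-2) cells were also made from Del(CBS1) cells, so these groups are not independent.

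Del(CBS1-5) differed in Ccne1 at all 3 stages. At 96 h Ccne1 stood at 47.2 and 49.5 FPKM against 33.4, 32.0 and 42.2 FPKM in wild type (0.44, SE 0.11, limma adjusted p = 0.0091), and at 120 h at 52.5 and 55.7 FPKM against 36.7, 36.0 and 42.8 FPKM (0.49, SE 0.11, limma adjusted p = 0.0059). At 144 h it stood at 77.8 and 71.8 FPKM against 49.8, 52.6, 47.7 and 47.7 FPKM (0.60, SE 0.11, limma adjusted p = 5.4e-05). Mutant and wild-type libraries did not overlap at any stage. The highest wild-type library at 96 h and 120 h was replicate 3. The call of 120 h was lost without mutant replicate 2 (adjusted p = 0.11 by limma), and that of 144 h was kept under every alternative. When the compared libraries were fitted alone, the adjusted p (limma) was 0.22 at 96 h, 0.14 at 120 h and 0.0056 at 144 h.

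At 96 h, where 11.9% of all genes were called, 3 more members rose: Cdc20 by 0.42, Mcm2 by 0.27 and Mcm5 by 0.22. Cdc20 stood at 186 and 177 FPKM against 125, 128 and 156 FPKM. All 4 calls of this stage, Ccne1 included, were lost without wild-type replicate 1, wild-type replicate 2 or either mutant library, with adjusted p (limma) up to 0.13, and were kept without wild-type replicate 3. The Mcm5 call was also lost with all 4 wild-type libraries outside the time course as controls (0.15). At 120 h Ccne1 was the only member called, and 7.85% of all genes were. The summed pluripotency markers of the mutant, 757 to 759 FPKM at 96 h and 622 to 709 FPKM at 120 h, lay above every wild-type library of the set (at most 346 and 343 FPKM), with 5 of 7 higher at either stage. All 5 endothelial markers were higher at 120 h, with sums of 10.8 to 12.9 FPKM against 0.622 to 3.21 FPKM. Their part in these results was not tested.

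At 144 h Del(CBS1-5) had more calls than any other mutant group, 8 members higher and 6 lower, where 30.7% of all genes were called, 19.9% higher and 10.8% lower. The median log2 fold change was 0.04 over the members and 0.03 over all genes. Of the G1 genes 3 fell: Ccnd1, at 74.3 and 76.8 FPKM against 87.5, 94.0, 145 and 147 FPKM, by 0.60, Ccnd2, at 84.9 and 76.1 FPKM against 112, 114, 206 and 207 FPKM, by 0.93, and Cdk6 by 0.52. Of the mitotic and chromosome genes, Cenpe rose by 0.61, Kif11 by 0.36, Cdk1 by 0.30, Top2a by 0.27, Bub1 by 0.19 and Bub1b by 0.19. Of the replication genes Pcna rose by 0.24, and Gins2, Mcm4 and Mcm7 fell by 0.22, 0.15 and 0.15.

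The 4 wild-type libraries of 144 h were of 2 kinds, and several of these values depended on which was used. Ccnd2 stood at 114 and 112 FPKM in the time course and at 207 and 206 FPKM in the other pair, Ccnd1 at 147 and 145 FPKM against 87.5 and 94.0 FPKM, and Cenpe at 11.7 and 11.9 FPKM against 20.0 and 22.3 FPKM. With the time course alone as control, an alternative chosen after the data were seen, Ccnd2 in Del(CBS1-5) gave -0.49 (adjusted p = 0.073 by limma), Ccnd1 -0.95 and Cenpe 1.03. With the other pair alone Ccnd2 gave -1.36, Ccnd1 -0.26 (adjusted p = 0.077 by limma) and Cenpe 0.20 (0.42), and Kif11, Cdk6, Top2a, Bub1, Bub1b, Gins2, Mcm4 and Mcm7 were not called either (0.15, 0.085, 0.93, 0.33, 0.43, 0.067, 0.37 and 0.12), which left 4 of the 14 calls, Ccne1, Ccnd2, Cdk1 and Pcna. With the time course alone Bub1, Cdk1, Gins2, Mcm4 and Mcm7 were lost besides Ccnd2 (0.067, 0.053, 0.066, 0.088 and 0.18). Ccne1 was called with either pair, at 0.55 and 0.65.

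The calls of Bub1, Cdk1 and Gins2 at 144 h were lost without mutant replicate 1 (adjusted p = 0.25, 0.15 and 0.20 by limma), and that of Bub1b without either mutant library (0.12). Those of Mcm4 and Top2a were lost without either mutant or either time course library, that of Mcm7 without either mutant library or replicate 1 of either wild-type pair, and that of Pcna without any library but replicate 2 of the other pair (0.18, 0.21, 0.19 and 0.18). Top2a, at 198 and 187 FPKM against 136, 136, 181 and 196 FPKM, overlapped between the groups. The pluripotency markers summed to 829.4 to 921 FPKM in the mutant and 7.46 to 111 FPKM in wild type, with 6 of 7 higher, 1 lower and none at 0. The neural progenitor markers summed to 52.9 to 54.8 FPKM against 90.1 to 135 FPKM, and 2 of 5 were lower. Of the 6 markers of streak and presomitic mesoderm 5 were lower, with sums of 15.9 to 18.8 FPKM against 37.2 to 89.3 FPKM and Msgn1 at 0 in the mutant. Their part in the result was not tested.

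**Figure D5:**
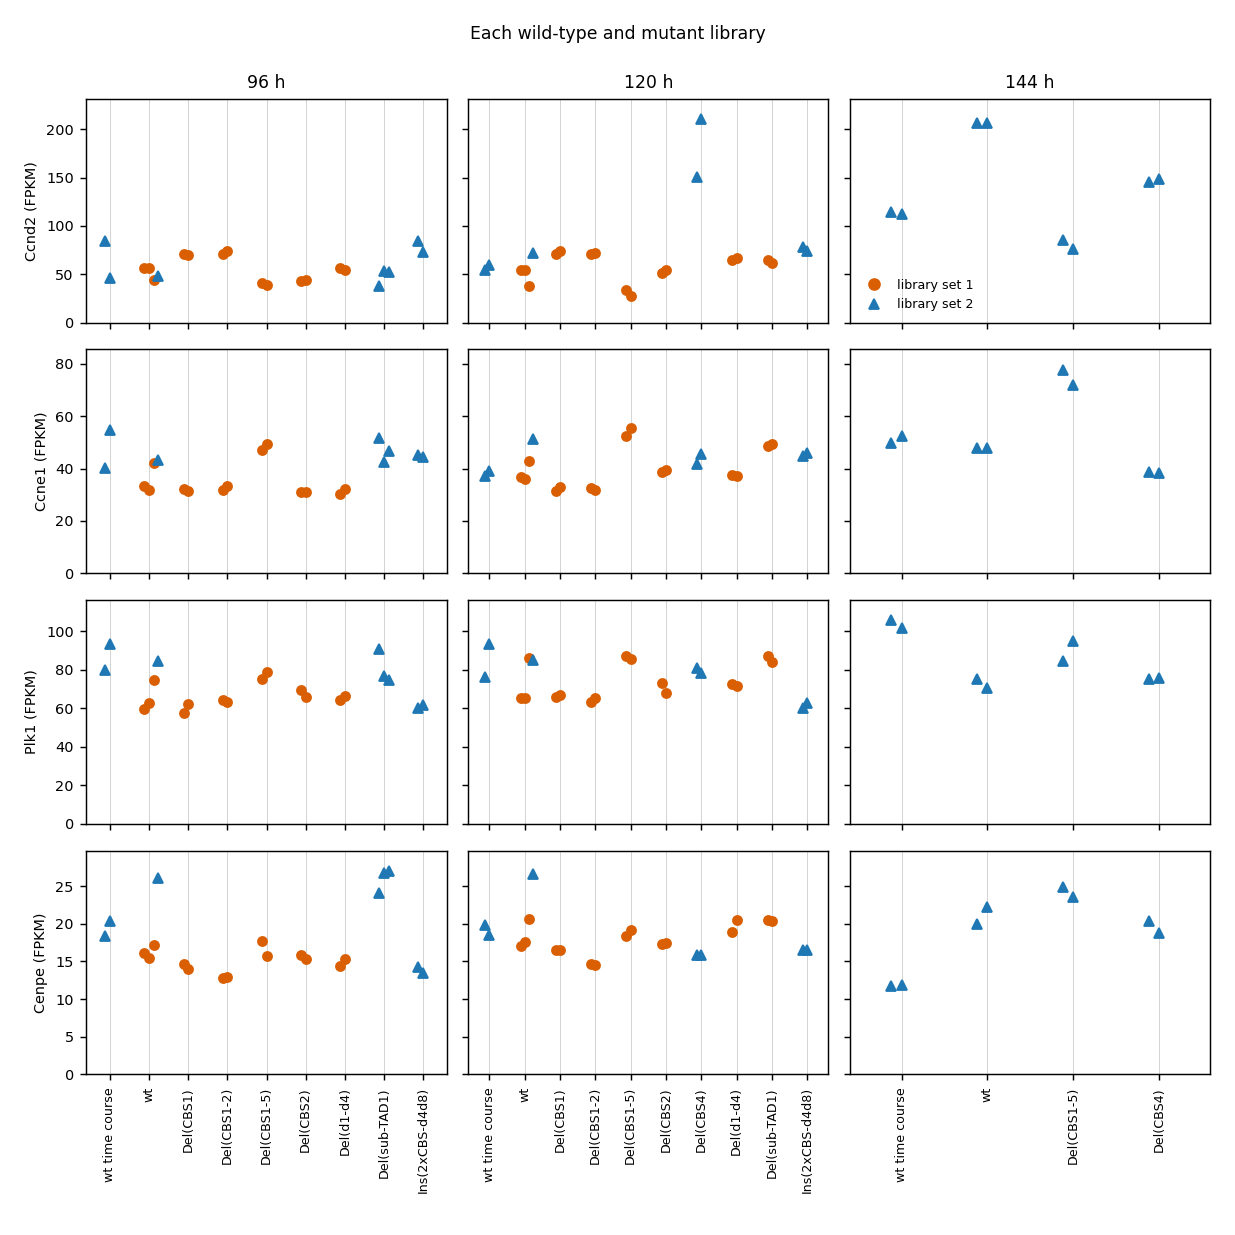
Levels in FPKM (y axes, from 0) of Ccnd2, Ccne1, Plk1 and Cenpe in every wild-type and mutant library of 96 h, 120 h and 144 h (columns of panels), by genotype along the x axis. Orange circles are libraries with high mitochondrial mRNA (set 1) and blue triangles those with low (set 2). Ccnd2 of Del(CBS4) at 120 h stands above all wild-type libraries of that stage, and Ccne1 of Del(CBS1-5) is above the wild-type libraries of its own set at each stage.

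Del(CBS4) at 120 h had the largest difference of any member in a mutant. Ccnd2 stood at 150 and 210 FPKM against 54.5, 59.3 and 72.3 FPKM in wild type, a log2 fold change of 1.53 (SE 0.23, limma adjusted p = 1.4e-05), with the libraries well apart, and the call held whichever library was left out (highest adjusted p = 0.0071). It was lost when its own 5 libraries were fitted alone (adjusted p = 0.17 by limma). Mcm4 rose by 0.18, and Mki67 fell by 0.61, from 46.4, 52.7 and 58.5 FPKM in wild type to 32.6 and 35.8 FPKM, and Gins2 by 0.29, where 12.4% of all genes were called. The Mki67 call was lost without wild-type replicate 4 or either mutant library, the Mcm4 call without either mutant or either time course library, and the Gins2 call without mutant replicate 2 (highest adjusted p = 0.19, 0.27 and 0.096 by limma). With all 4 wild-type libraries outside the time course as controls, 3 of them of set 1, Gins2 gave -0.07 (0.55).

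Markers of several cell types moved in the same libraries. The sum of 5 neural progenitor markers was 113 to 162 FPKM in Del(CBS4) at 120 h and 11.96 to 48.4 FPKM in its wild type, with 3 of 5 higher and none at 0, and it was 90.1 to 135 FPKM in wild type of 144 h. The sum of 5 endoderm markers was 3.15 to 4.004 FPKM against 15.9 to 99.7 FPKM, with Shh at 0 in the mutant, and that of 5 endothelial markers 0.224 to 0.373 FPKM against 1.76 to 32.7 FPKM, with all 5 lower in both lists. Of 6 markers of streak and presomitic mesoderm 4 were lower, with sums of 52.3 to 70.7 FPKM against 82.3 to 226 FPKM. Their part in the Ccnd2 result was not tested.

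At 144 h, 3 members fell in Del(CBS4), all helicase subunits: Mcm7, at 170 and 171 FPKM against 204, 199, 215 and 196 FPKM, by 0.25, Mcm5 by 0.21 and Mcm3 by 0.20, where 3.42% of all genes were called. The call of Mcm7 was lost without either mutant library (0.18), and those of Mcm5 and Mcm3 without either mutant or either time course library (0.36 and 0.30, adjusted p by limma). With the other wild-type pair alone as control none of the members was called, and with the time course alone 16 were, Mcm7 and Mcm5 among them but not Mcm3 (0.084). Cardiac markers (2 of 4 tested) and neuronal markers (2 of 5) were lower, with sums of 3.08 to 3.92 FPKM against 5.24 to 110 FPKM and of 13.6 to 16.6 FPKM against 20.0 to 47.7 FPKM, and their part was not tested.

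The mutant effects of the stages were compared directly in 9 pairs of stages. In Del(CBS4), the effect on Ccnd2 at 144 h was lower than that at 120 h by a log2 difference of -1.59 (95% interval -2.22 to -0.95, limma adjusted p = 0.0024), and that on Mcm7 by -0.38 (-0.55 to -0.22, limma adjusted p = 0.0056), where 2.55% of all genes were called. Both calls were lost without mutant replicate 2 of 120 h (adjusted p = 0.068 and 0.13 by limma). The wild type of 144 h averaged the 2 unlike pairs of libraries described above, and the stage difference was not recomputed with either pair alone. In the other 8 pairs of stages limma called 0 members. Over all genes, 7.66% were called in Del(CBS1-5) from 120 h to 144 h and 3.49% in Del(sub-TAD1), and from 96 h to 120 h 0.193% in Ins(2xCBS-d4d8), 0.0819% in Del(CBS1-5), 0.0351% in Del(CBS1-2), 0.0292% in Del(d1-d4), 0.0117% in Del(CBS1) and 0.0117% in Del(CBS2). Members with an unadjusted p under 0.05 numbered 13 in Del(CBS4), where all libraries compared were of set 2. They numbered 12 in Del(sub-TAD1) from 96 h to 120 h and 3 in Del(CBS1-5) from 120 h to 144 h. The latter 2 pairs of stages compare libraries across the 2 sets. In the remaining pairs there were at most 2 such members.

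In Ins(2xCBS-d4d8) at 96 h 5 members, all among the 15 genes of mitosis and chromosomes, fell and 1 rose, where 9.91% of all genes were called, 4.4% higher and 5.52% lower: Cenpe fell by 0.62, Plk1, the kinase of mitotic entry and exit, by 0.49, Top2a by 0.40, Aurka by 0.40 and Bub1b by 0.23, and Gins1, a subunit of the active helicase, rose by 0.34. Plk1 stood at 60.31 and 61.96 FPKM against 79.6, 93.2 and 84.8 FPKM in wild type, and Cenpe at 14.3 and 13.5 FPKM against 18.4, 20.4 and 26.1 FPKM. The mutant libraries were the lowest for both genes. At 120 h Plk1 was again lower, at 60.1 and 62.8 FPKM against 76.1, 93.1 and 84.9 FPKM (-0.46, SE 0.13, limma adjusted p = 0.031), and it was the only member called, with 4.35% of all genes.

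Every call in Ins(2xCBS-d4d8) was lost without mutant replicate 2, and all but that of Aurka also without replicate 1, with adjusted p (limma) from 0.057 for Aurka to 0.25 for Gins1 at their highest. Wild-type libraries whose removal ended a call were replicate 4 for Cenpe, Bub1b and Plk1 of 120 h, time course replicate 2 for Bub1b, Gins1 and Plk1 of both stages, and time course replicate 1 for Gins1. With all 4 wild-type libraries outside the time course as controls, 3 of them of set 1, 4 of the 5 lower calls of 96 h were lost: Plk1 gave -0.19, Aurka -0.16, Top2a -0.19 and Bub1b 0.01 (adjusted p = 0.20, 0.25, 0.10 and 0.97 by limma), and Plk1 of 120 h -0.28 (0.054). Cenpe (-0.39) and Gins1 (0.30) kept their calls. With the time course alone Aurka and Bub1b were lost (0.057 and 0.26), and with a replicate block Bub1b and Plk1 of 120 h (0.056 and 0.075). Of 27 other mitotic genes 5 fell at 96 h and none rose, with a median of -0.19. Of 4 somite markers tested 2 were lower at 96 h, with a sum of 51.0 to 128 FPKM against 123 to 288 FPKM, and the sum of neural progenitor markers was 24.3 to 30.3 FPKM against 6.83 to 19.7 FPKM. Their part was not tested.

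In Del(sub-TAD1) at 96 h 4 of the 38 members fell and 0 rose, a smaller share than the 14.1% of all genes that were called, and all 4 serve DNA synthesis. Pcna stood at 187, 165 and 165 FPKM against 209, 194 and 253 FPKM (-0.33, SE 0.09, limma adjusted p = 0.0085), Rrm2 at 166, 130 and 128 FPKM against 162, 170 and 180 FPKM (-0.28), Cdc45 at 38.2, 34.1 and 35.4 FPKM against 38.8, 41.9 and 42.5 FPKM (-0.19) and Mcm2 at 130, 119 and 119 FPKM against 148, 140 and 130 FPKM (-0.18). Mutant replicate 1 was the highest of the mutant libraries for each gene, and Rrm2 and Mcm2 overlapped wild type. The Pcna call was lost without wild-type replicate 4 (adjusted p = 0.077 by limma). Rrm2 and Cdc45 were lost without wild-type replicate 4 or mutant replicate 2 or 3, Cdc45 and Mcm2 without time course replicate 2, and Mcm2 without time course replicate 1 or mutant replicate 2 or 3 (up to 0.14, 0.17 and 0.23). With all 4 wild-type libraries outside the time course as controls Pcna remained called (-0.53), while Rrm2 gave -0.19, Cdc45 -0.03 and Mcm2 0.06 (adjusted p = 0.10, 0.80 and 0.50 by limma). Rrm2 and Cdc45 were also lost with the time course alone (0.13 and 0.19) and with a replicate block (0.086 and 0.25). The pluripotency markers summed to 113 to 475 FPKM against 67.6 to 108 FPKM, with 1 of 7 called higher, and their part was not tested. At 120 h limma called 0 members (2 at an unadjusted p under 0.05), and 6.65% of all genes, and Ccne1 came nearest with 0.35 (adjusted p = 0.059).

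Of the related genes in the lists above, Cdkn1c, named here after its values were seen, was called in 10 of the 17 mutant groups. It stood at 0.416 and 0.678 FPKM in Del(CBS1) and 0.465 and 0.413 FPKM in Del(CBS1-2) at 96 h, against 2.72, 2.87 and 13.4 FPKM in wild type (-2.93 and -3.17). In Ins(2xCBS-d4d8) at 96 h it stood at 0.576 and 0.777 FPKM against 3.52, 9.90 and 4.66 FPKM (-2.85). It was lower at 120 h too in these 3 genotypes (-2.66, -2.95 and -2.09) and in Del(CBS4) at 144 h (-2.23). It was higher in Del(CBS1-5) at 144 h, with a mean of 90.1 FPKM over 2 libraries against 25.9, 29.5, 19.6 and 17.7 FPKM (1.97), and in Del(sub-TAD1) at 96 h and 120 h (1.62 and 1.83). Wild-type replicate 3 held the highest value of its set at both stages, 13.4 FPKM at 96 h and 39.9 FPKM at 120 h, where the other 2 libraries had 8.61 and 9.96 FPKM. The 10 groups are not independent, since they share wild-type libraries, include several stages of some genotypes, and Del(CBS1-2) descends from Del(CBS1) cells. How many other genes reach such a count was not determined.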

How the data were processed

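RNA levels were taken from the FPKM table the authors deposited for 61 libraries of mouse stembryos. Per the labels and the study's methods, poly(A) libraries were stranded and sequenced in pairs, trimmed with cutadapt 1.16 and mapped with STAR 2.7.7a, and FPKM were computed by Cufflinks 2.2.1 from uniquely mapped reads on mm10. FPKM do not give counts. Depth (14.4 to 37.3 M fragments a library) was estimated from the deposited confidence limits and bears on counting error only. FPKM are shares of a library, so a fold change is relative to all other transcripts.

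Values were tested as log2(FPKM + 0.1) with limma 3.58.1 (R 4.3.3) over the 17098 genes with a mean of at least 1 FPKM in a group, which held all 38 members. The script was tested on simulated data. Time course and mutant comparisons came from fits over all 61 libraries, with 1 coefficient per label group, or per genotype, stage and mitochondrial set. P-values were adjusted by Benjamini-Hochberg over all genes tested in each comparison, with a threshold of 0.05. Fold changes on this scale understate changes of low genes. For wild-type replicates 1 to 3 of 96 h and 120 h, same-numbered deviations from the group means correlated at 0.18, 0.18 and 0.42. Replicate 3 stood apart at both stages and enters each mean, so these values cannot establish a pairing, and no label states one. In the time course 1 of 28 stage pairs was over 0.1, and in the mutants no such correlation exceeded 0.0995.

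The members and lists were chosen with earlier results of these data known. Members past the threshold were named, up to 8 in each direction with the largest change, and up to 4 genes of each other list. Alternatives were a pseudocount of 1 FPKM, no filter, upper-quartile scaling, a replicate block, fits of the compared groups alone, other wild-type controls and leaving out each library. Promoter sequences are from RefSeq (GRCm38.p6). Summaries used Python 3.11.15, numpy 2.4.6 and pandas 2.3.3, and plots matplotlib 3.10.9.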

Additional observations from a re-analysis of the deposited data

Results flagged for a closer look

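In wild type outside the time course, the groups of 96 h, with 4 libraries, and 120 h, with 4, were screened for a library far from the others, gene by gene, together with the 4 wild-type libraries of 144 h in set 2. Of 114 such screens 9 gave a library with a gap beyond Dixon's critical value, and chance flags about 1 in 20. All but 1 of the 9 concerned replicate 4, which is the library of each group with little mitochondrial mRNA. At 96 h it held 26.1 FPKM of Cenpe, where the others held 15.5 to 17.2, and 47.6 FPKM of Mki67, where the others held 37 to 37.6. At 120 h it held 34.9 FPKM of Cdc6 (others 23.3 to 24), 30.4 FPKM of Gins2 (24.8 to 25.4), 156 FPKM of Mcm3 (120 to 124), 123 FPKM of Mcm4 (91.8 to 92.3), 199.9 FPKM of Mcm5 (154 to 159) and 184 FPKM of Mcm6 (128 to 135). The remaining one was Pcna in replicate 3 of 120 h, at 310 FPKM (266 to 272).

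The effect of Del(CBS4) differed between stages for 2 members. Its wild type of 144 h averaged unlike pairs of libraries, and neither pair was used alone for this difference. The log2 fold change of Ccnd2 against wild type was lower at 144 h than at 120 h by a difference of -1.59, and that of Mcm7 by a difference of -0.38, in the limma test of the difference itself. Both calls were lost without Del(CBS4) replicate 2 of 120 h.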

How the results depend on the processing

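Of 92 calls of single members, 987 recomputed values gave 721 calls kept and 264 lost with the direction kept. Only 2 values turned direction, both with all wild-type libraries outside the time course as controls: Mcm2 in Del(sub-TAD1) at 96 h (0.0553) and Bub1b in Ins(2xCBS-d4d8) at 96 h (0.0124). Under all alternatives 5 of 21 calls in time course steps, 13 of 22 between 72 h and 168 h, 6 of 10 in wild type from 96 h to 120 h and 1 of 37 in mutants (Ccne1 in Del(CBS1-5) at 144 h) were kept. The cause of the changes below was not tested.

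In the time course the numbers of members called in the steps from 72 h were, in order, 6, 3, 3, 3, 0, 3 and 3. With a replicate block they were 15, 12, 5, 8, 4, 7 and 6, although the replicate numbers share no pairing there. Fits of the time course alone gave 10 and 7 in the first 2 steps. From 108 h to 120 h, no filter and upper-quartile scaling both left 1. In mutants the replicate block gave 2 (main value 1) in Del(CBS1-5) at 120 h, 7 (4) at 96 h, 5 (3) in Del(CBS4) at 144 h, 8 (2) in its stage difference, 1 (0) in Del(sub-TAD1) at 120 h and 0 (1) in Ins(2xCBS-d4d8) at 120 h. The replicate block changed no other count of calls by over 1.5 times.

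Fits of the compared groups alone gave 4 calls in Del(CBS1-5) at 144 h and 0 in each of the other 7 mutant groups with calls. All wild-type libraries outside the time course as controls gave 3 in Del(CBS1-2) at 96 h, 4 and 7 in Del(CBS1-5) at 120 h and 144 h, 21 and 0 in Del(CBS4) at 120 h and 144 h, 1 in Del(d1-d4) at 120 h, 13 in Del(sub-TAD1) at 96 h and 7 in Ins(2xCBS-d4d8) at 120 h. At 96 h and 120 h, replicates 1 to 3 of these controls are of set 1, while Del(CBS4), Ins(2xCBS-d4d8) and Del(sub-TAD1) of 96 h are of set 2. Their counts at these stages therefore compare libraries across the sets. The shares of all genes called under the alternatives are not given. The time course alone gave 7 and 16 in Del(CBS4) at 120 h and 144 h. A pseudocount of 1 FPKM gave 5 in Del(CBS4) at 144 h and 1 in Del(sub-TAD1) at 120 h, upper-quartile scaling 5 in Del(CBS4) at 144 h and 6 in its stage difference, and no filter 2 in Del(sub-TAD1) at 96 h.

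Leaving out each library in turn gave these ranges of members called: 4 to 7, 1 to 4, 0 to 6, 0 to 2, 0 to 0, 0 to 1 and 2 to 4 in the 7 steps, 17 to 19 between 72 h and 168 h, and 7 to 13 in wild type from 96 h to 120 h. In Del(CBS1-5) they were 0 to 7 at 96 h, 0 to 3 at 120 h and 6 to 17 at 144 h, in Del(CBS4) 1 to 7 and 0 to 9 at 120 h and 144 h, in Del(sub-TAD1) 1 to 11 and 0 to 2 at 96 h and 120 h, and in Ins(2xCBS-d4d8) 0 to 9 and 0 to 2 at 96 h and 120 h. For the stage differences they were 0 to 10 in Del(CBS4), 0 to 7 in Del(sub-TAD1) and 0 to 2 in Del(CBS1-5) from 120 h to 144 h, and all others remained at 0. Upper-quartile scaling moved the median of all genes by -0.054 to 0.052.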

Other observations

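The 2 pairs of wild-type libraries of 144 h, both with little mitochondrial mRNA, gave different levels for several members. Plk1 stood at 105.6 and 101.6 FPKM in the time course and at 75.2 and 70.6 FPKM in the other pair, and Ccnd2 at 114 and 112 FPKM against 207 and 206 FPKM. The pluripotency markers summed to 7.46 and 12.4 FPKM in the pair outside the time course. The difference between the pairs was not tested.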
